A study of Mus musculus with 12 samples.

Results

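The genes described here are the 37 genes of the mouse mitochondrial genome, taken as every row whose symbol starts with mt-; all 37 lie on chromosome M, and they are 37 of the 55357 genes measured. They comprise 13 protein-coding genes, 2 rRNA genes (mt-Rnr1 and mt-Rnr2) and 22 tRNA genes. The study asked how the transcriptome of the cerebral cortex changes when the brain lacks Egfr, the gene for the receptor of epidermal growth factor. RNA was sequenced in 12 libraries from 6 pups at postnatal day 5, with a rostral and a caudal piece of cortex plus hippocampal formation from each pup. The tested pups were Nestin-EgfrF/F (cKO), in which a Nestin-driven recombinase removes Egfr from neural progenitors and the cells that descend from them. The 4 groups were cKO rostral and cKO caudal (mice T3, T6 and T80), and control rostral and control caudal (mice T4, T8 and T70). Controls carried 1 floxed allele (EgfrF/+) and are also named wild type in the labels. Whether the recombinase was present in controls is not said, so its effect and the loss of Egfr cannot be told apart. The sexes were unequal, with 1 female and 2 males among cKO mice and 2 females and 1 male among controls, and sex was not a term of the fits.

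Mitochondrial DNA is a small circle that is transcribed from both strands as long precursor RNAs. The tRNAs lie between most of the mRNAs and rRNAs, and cutting at the tRNA ends releases the separate transcripts. All of the encoded proteins are membrane subunits of the respiratory chain or of ATP synthase, where they assemble with subunits made from nuclear genes. In the developing cortex this machinery supplies much of the ATP of neurons. Because the genes share precursors, they are not independent measurements of one another.

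Of the protein-coding genes, 7 encode subunits of complex I, the entry point for electrons from NADH (mt-Nd1 to mt-Nd6 and mt-Nd4l). One gene, mt-Cytb, encodes the cytochrome b of complex III, 3 encode the catalytic core of complex IV (mt-Co1, mt-Co2, mt-Co3), and 2 encode ATP synthase subunits (mt-Atp6, mt-Atp8). The plus strand carries 28 of the 37 genes. The minus strand carries 9, which are mt-Nd6 and 8 tRNA genes. The sources used here do not say whether strand was used in counting, so values of minus-strand genes may hold reads of the opposite strand. The genes mt-Atp8 (GRCm39 chromosome M, 7766 to 7969) and mt-Atp6 (7927 to 8607) overlap, as do mt-Nd4l (9877 to 10173) and mt-Nd4 (10167 to 11544).

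Mouse chromosome 1 holds a stretch of mitochondrial DNA that was copied into the nuclear genome, and its annotated pieces compete for the same reads. The 5 copies analysed here lie side by side on the minus strand of chromosome 1 (GRCm39): Gm28438 (24651856 to 24652200, a copy of mt-Nd3), Gm28437 (24652270 to 24653052, mt-Co3), Gm10925 (24653055 to 24653732, mt-Atp6), Gm28661 (24653966 to 24654646, mt-Co2) and Gm29216 (24654787 to 24655278, the 3′ part of mt-Co1). A sixth named copy, Gm10924, was not found among the genes measured and so could not be analysed. The aligned bases were 100% identical between mt-Co2 and Gm28661 (681 bases), mt-Atp6 and Gm10925 (678 bases), mt-Co3 and Gm28437 (783 bases) and mt-Nd3 and Gm28438 (342 bases). Over 483 aligned bases mt-Co1 and Gm29216 were 99.79% identical, with the substitution A1066T counted from the first base of mt-Co1. The following windows of 60 bases show how little there is to tell a gene from its copy; capitals mark bases that differ within a pair, and the letters are those of the GENCODE M21 transcripts of the same names.
mt-Co2: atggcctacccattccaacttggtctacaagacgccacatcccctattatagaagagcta
Gm28661: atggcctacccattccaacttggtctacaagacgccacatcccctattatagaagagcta
mt-Nd3: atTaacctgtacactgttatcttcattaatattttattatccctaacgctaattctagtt
Gm28438: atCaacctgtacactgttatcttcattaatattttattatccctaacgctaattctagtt
mt-Co1, bases 1054 to 1113: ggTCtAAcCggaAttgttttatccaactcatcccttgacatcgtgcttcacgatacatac
Gm29216: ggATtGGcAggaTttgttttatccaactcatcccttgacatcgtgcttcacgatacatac

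A read of 50 bases from inside mt-Co2 therefore has the same letters as one from Gm28661, and the count of either gene alone depends on how such reads were assigned. The deposited counts divided identical pairs in opposite ways. The mitochondrial row held only 0.0281% to 0.0566% of the counts of mt-Co2 and its copy in the 12 libraries, 0.0193% to 0.0311% for mt-Atp6 and 0.0312% to 0.0549% for mt-Co3. In these 3 pairs nearly all reads thus stood on chromosome 1. In contrast, the mitochondrial row held 91.6% to 93.4% of the counts of mt-Nd3 and its copy. For mt-Co1 and its copy it held 71.9% to 82.4%, but only 483 of the 1545 bases of mt-Co1 aligned to Gm29216. Reads from the rest of mt-Co1 cannot fall on that copy, so this share does not show how the reads in common were divided. The mitochondrial row held 99.9% for mt-Nd4 and mt-Nd4l, which have copies of their own in the same stretch (Gm28439 and Gm10222). Read counts on the mitochondrial rows reached at most 275 for mt-Co2, 586 for mt-Atp6 and 357 for mt-Co3, against 253166 to 1218781 for mt-Co1. Levels of these genes are therefore given below with the counts of the 5 copies added, unless the row itself is named. Other nuclear rows share some runs of 50 bases with mitochondrial genes and were not added to these levels. Those on chromosome 2 were Gm13340 (mt-Co1, 16912 to 49010.5 counts per library), Gm13341 (mt-Co2, 3100.5 to 9385) and Gm13339 (mt-Nd2, 1925.5 to 10096).

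**Figure D1:**
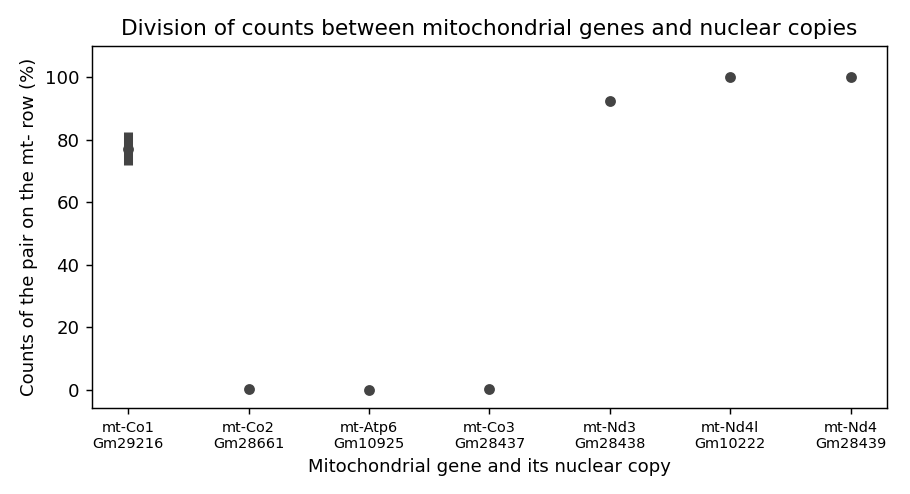
Share of the counts of each gene and its nuclear copy that stood on the mitochondrial row (y axis, percent), for 7 pairs (x axis); each bar spans the lowest to the highest of 12 libraries, with a dot at its middle. The rows of mt-Co2, mt-Atp6 and mt-Co3 held under 1% of their pairs' counts, and those of mt-Nd3, mt-Nd4l and mt-Nd4 held over 90%.

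Total counts ran from 43810458 to 87170315 per library. Egfr itself had 5.81 to 14.6 CPM (counts over library size, scaled with TMM factors over the 12 libraries) in the 6 cKO libraries and 39.1 to 48.9 CPM in the 6 control libraries, so each library matched its label. The summed level of 10 neuron markers was 7396 to 10284 CPM in every library. The rostral piece of cKO mouse T6 stood apart in its mitochondrial counts and in other ways: its TMM factor was 0.8378, against 0.97 to 1.04 in the other 11 libraries, and it had the highest summed neuron markers (10284 CPM, against 7396 to 8821 CPM). It had the lowest summed markers of astrocytes (968 CPM, against 1853 to 2890 CPM), of meningeal fibroblasts (32.3 CPM, against 130 to 831 CPM), of oligodendrocytes (303 CPM, against 357 to 603 CPM) and of microglia (103 CPM, against 130 to 303 CPM). No marker of these lists was at 0 in it. The part of these differences in the mitochondrial results was not tested, and in bulk tissue fewer cells of a type and less RNA per cell cannot be told apart. The main genotype results are also given without T6.

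Per unit of length, mt-Atp6 had the highest level of the protein-coding and rRNA genes, at 15591 CPM per kilobase as a mean of the 12 libraries with its copy added. It was followed by the complex IV genes mt-Co3 (7048 CPM per kilobase), mt-Co1 (6531) and mt-Co2 (6052). The plus-strand complex I genes and mt-Cytb lay between 1935 (mt-Nd3) and 4550 CPM per kilobase (mt-Nd1), and the rRNAs mt-Rnr2 and mt-Rnr1 had 1513 and 1454 CPM per kilobase. The minus-strand gene mt-Nd6 had 333 CPM per kilobase. The row of mt-Atp8 had 6.04 CPM per kilobase. This gene lies between mt-Co2 and mt-Atp6, and no copy between Gm28661 and Gm10925 was analysed. Reads of mt-Atp8 placed on that part of chromosome 1 would thus be missing from its level, which was not tested. The precision of this order is limited for mt-Co1, mt-Co2, mt-Atp6 and mt-Co3, whose levels rest on the copies. The place of mt-Atp8 in it cannot be given.

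The tRNA genes together took 0.217% to 0.281% of the counts of the 37 genes, in libraries made by mRNA capture. Of the 22 tRNA genes, 11 had a mean of 1 CPM or more, and the other 11 lay below. The highest was mt-Tl1, the leucine tRNA gene between mt-Rnr2 and mt-Nd1, with 161 CPM in cKO rostral T6 and 21.7 to 56.1 CPM in the other 11 libraries. Over all 12 libraries 5 members had fewer than 100 summed counts.

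The share of all counts that fell on the 37 genes was higher in cKO than in control mice in both pieces of cortex, without overlap, but 3 against 3 mice cannot give a p below 0.1. In rostral cortex the share was 3.92% (T3), 8.18% (T6) and 3.84% (T80) in cKO mice and 2.62% (T4), 3.13% (T8) and 3.63% (T70) in control mice. The means were 5.31% ± 2.48 in cKO and 3.13% ± 0.506 in control mice (SD, n = 3 each), a difference of 2.19 percentage points (exact permutation test, two-sided, p = 0.1). In that group T6 was far above the other mice, and T3 and T80 lay just above the highest control. In caudal cortex the share was 2.68%, 3.98% and 2.36% in cKO T3, T6 and T80, against 2.31%, 2.18% and 1.85% in control T4, T8 and T70. The means were 3.01% ± 0.86 in cKO and 2.12% ± 0.24 in control mice (SD, n = 3 each), a difference of 0.893 points (exact permutation p = 0.1). The caudal piece of T6 was again the highest, and T80 exceeded the highest control only slightly. With both pieces of each mouse summed, the share was 3.45%, 6.35% and 3.07% in cKO mice and 2.43%, 2.67% and 2.75% in control mice (exact permutation p = 0.1). Without T6 the differences shrank to 0.754 points in rostral cortex, 0.405 in caudal cortex and 0.642 in the summed counts. Markers of other cells moved with genotype as well: the summed level of 10 oligodendrocyte lineage markers was 303 to 462 CPM in cKO rostral and 568 to 603 CPM in control rostral cortex, and 357 to 423 CPM in cKO caudal and 477 to 537 CPM in control caudal cortex. Of these 10, Olig1, Olig2 and Enpp6 were called lower in the summed counts of cKO mice (edgeR), as was Kcnj10 of 10 astrocyte markers, beside 0.179% of all genes. All 8 striatum markers had log2 fold changes below 0 in both pieces, with 0 called. Their summed level was 72.3 to 92.2 CPM in cKO rostral and 94.7 to 280 CPM in control rostral cortex. In caudal cortex the groups overlapped, at 82.6 to 119 CPM in cKO and 89.0 to 200 CPM in control mice. Other lists pointed upwards. All 7 tested choroid plexus markers in rostral (median log2 fold change 1.48) and all 8 in caudal cortex (0.62) were above 0. So were 8 of 8 meningeal fibroblast markers in rostral (0.75) and 5 of 8 in caudal cortex (0.16). Of 10 microglia markers 8 were above 0 in each piece (0.75 and 0.29). None of these 3 lists had a call in either piece. The part of all these markers in the mitochondrial difference was not tested.

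With the 5 copies added, the share in rostral cortex was 6.56%, 12.7% and 6.17% in cKO mice and 4.53%, 5.36% and 5.95% in control mice. In caudal cortex it was 4.63%, 6.46% and 4.03% in cKO mice and 3.97%, 3.78% and 3.23% in control mice. The groups again did not overlap in either piece, so the order of the groups was the same on both measures.

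**Figure D2:**
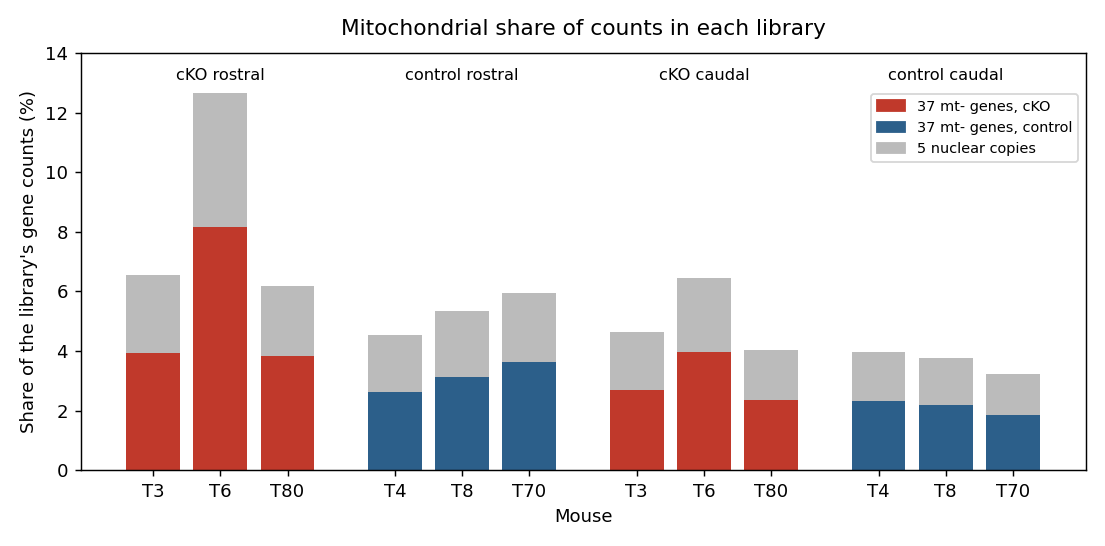
Share of each library's gene counts (y axis, percent) taken by the 37 mitochondrial genes (red for cKO, blue for control) and, stacked in grey, by the 5 nuclear copies; each bar is 1 library, labelled with its mouse. The cKO rostral library of T6 reached 8.18% for the 37 genes, against 1.85% to 3.98% in the other 11 libraries.

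Gene by gene, no mitochondrial gene passed the threshold of an adjusted p under 0.05 between cKO and control in rostral cortex (quasi-likelihood test of edgeR, adjusted over all genes by Benjamini-Hochberg). Of the 37 genes, 31 had enough counts to be tested, and 0 of 31 were called, where 0 of 20599 genes (0%) were called in all. Of the 31, 7 had an unadjusted p under 0.05, as had 1955 of all genes tested, and DESeq2 called none of the 31 and 394 of all genes (1.91%). The log2 fold changes were above 0 for 28 of the 31, with a median of 0.765, against 0.038 over all genes tested. Without T6 the median was 0.274, and 3 of 30 tested genes had an unadjusted p under 0.05 (4736 of 21118 over all genes). All 15 protein-coding and rRNA genes were above 0, at 0.25 to 1.13. Fold changes and tests are those of the mitochondrial rows; with the copies added, 0 mitochondrial genes were called in rostral cortex, in caudal cortex (0.0821% of all genes called) or in the sum of both (0.179%).

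Among the protein-coding and rRNA genes the largest rostral differences were in complex I genes, as was the smallest. Some tRNA genes of far lower counts had larger values, up to 2.02 (mt-Tl2, SE 0.65). For mt-Nd5, the proton-pumping subunit at the tip of the membrane arm, the level was 3907, 14441 and 4003 CPM in cKO T3, T6 and T80, against 2743, 3564 and 3959 CPM in control T4, T8 and T70. Only T6 stood clearly above the controls. The log2 fold change was 1.13 (SE 0.52, edgeR adjusted p = 0.536), and without T6 it was 0.22. For mt-Nd4, another pumping subunit, the levels were 5157, 17420 and 5247 CPM in cKO mice and 3567, 4417 and 5008 CPM in control mice. Here the cKO mice lay above every control, T3 and T80 by little. Its log2 fold change was 1.10 (SE 0.48, edgeR adjusted p = 0.524), against 0.27 without T6. For mt-Nd3, which helps to couple electron transfer to pumping, the levels were 816, 837 and 865 CPM in cKO mice and 570, 743 and 817 CPM in control mice on its own row. T6 did not stand out in mt-Nd3. The log2 fold change was 0.25 (SE 0.14, edgeR adjusted p = 0.564) and was 0.25 without T6.

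The gene of complex III, mt-Cytb, had 5162, 14793 and 5402 CPM in cKO rostral cortex and 3627, 4487 and 4854 CPM in control rostral cortex, a log2 fold change of 0.97 (SE 0.41, edgeR adjusted p = 0.524), against 0.30 without T6. For mt-Co1, the subunit that binds and reduces oxygen, the levels with its copy were 12437, 20523 and 11571 CPM in cKO mice and 8638, 10635 and 11693 CPM in control mice. These groups overlapped, since T80 lay below control T70, whereas on the row of mt-Co1 itself they did not (log2 fold change 0.63, against 0.27 without T6). For mt-Atp6, the proton channel subunit of ATP synthase, they were 11091, 30857 and 9879 CPM in cKO mice and 8529, 9988 and 10294 CPM in control mice, again with T80 within the control range. The row of mt-Atp6 had a log2 fold change of 0.84, against 0.19 without T6. Differences of the rRNAs were smaller: the log2 fold change was 0.49 (SE 0.18) for mt-Rnr1 and 0.33 (SE 0.15) for mt-Rnr2, with edgeR adjusted p of 0.48 and 0.532. Without T6 these were 0.39 and 0.27.

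In 14 of the 31 tested genes every cKO rostral library was above every control rostral library, and in 1 (mt-Tc) every one was below; over all genes tested the groups did not overlap upwards in 9.76% and downwards in 9.89%. For mt-Nd3, mt-Nd5 and mt-Tc this held on the scale of the 6 rostral libraries and not on the 12-library scale used for the levels above. Among the protein-coding and rRNA genes the groups did not overlap for 8 of 15, of which 6 encode complex I.

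In caudal cortex the differences pointed the same way, and 0 of 33 tested mitochondrial genes were called, where 17 of 20705 genes (0.0821%) were called in all. An unadjusted p under 0.05 was seen for 14 of the 33 and for 3004 of all genes. The log2 fold changes were above 0 for 29 of 33, with a median of 0.532, against 0.004 over all genes tested. Without T6 the median was 0.234, and 6 of 33 tested genes had an unadjusted p under 0.05 (3555 of 21082 over all genes). The 15 protein-coding and rRNA genes ranged over 0.26 to 0.78. Of the 33, 17 had every cKO library above every control library and 1 (mt-Tn) had every one below, against 11.3% and 11.3% of all genes tested. For mt-Nd2 this held on the scale of the 6 caudal libraries and not on that of all 12.

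For mt-Cytb the caudal levels were 3731, 5610 and 3239 CPM in cKO T3, T6 and T80, against 3140, 3009 and 2515 CPM in control T4, T8 and T70. T6 was highest here too, and T80 just exceeded T4. The log2 fold change was 0.54 (SE 0.20, edgeR adjusted p = 0.305), against 0.27 without T6. The rRNA mt-Rnr1 had 1337, 1460 and 1044 CPM in cKO caudal cortex, where T80 lay below control T4, and 1083, 899 and 877 CPM in control caudal cortex. Its log2 fold change was 0.43 (SE 0.13) with an edgeR adjusted p of 0.252, against 0.32 without T6.

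The clearest caudal difference of a single member was in mt-Tt, the threonine tRNA gene that follows mt-Cytb (chromosome M, 15289 to 15355, plus strand).
mt-Tt: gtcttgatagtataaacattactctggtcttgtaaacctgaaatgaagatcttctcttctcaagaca

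In caudal cortex mt-Tt had 2.22, 2.20 and 2.01 CPM in cKO T3, T6 and T80, against 0.833, 0.822 and 0.483 CPM in control T4, T8 and T70. The 3 cKO mice were alike, with T6 in the middle, and all were well above the controls. These levels rest on 100.5, 150.5 and 147.5 counts in cKO mice and 70, 55.5 and 31 counts in control mice. The log2 fold change was 1.57 (SE 0.23), which missed the threshold in the edgeR test (adjusted p = 0.0673). It passed with DESeq2 (adjusted p = 2.72e-06), which called 2.5% of all genes, and with limma voom with library quality weights (adjusted p = 0.0278), which called 0.86%. It also passed with no filter on low counts (edgeR adjusted p = 9.33e-05, 0.839% of all genes called) and without T6 (edgeR adjusted p = 0.0388, 0.768% called). It did not pass in any other alternative run in caudal cortex. There the smallest edgeR adjusted p of any mitochondrial gene was 0.0515 without T3 and 0.204 to 0.346 without T80, T4, T8 or T70. In 1 edgeR fit over all 12 libraries that smallest adjusted p was 0.585. In rostral cortex mt-Tt had 1.07, 6.29 and 2.64 CPM in cKO mice and 0.735, 0.902 and 1.31 CPM in control mice, and these groups overlapped. The asparagine tRNA gene mt-Tn, on the minus strand, was lower, at 0.258, 0.270 and 0.252 CPM in cKO caudal cortex and 0.330, 0.480 and 0.574 CPM in control caudal cortex (log2 fold change -0.82, SE 0.30, edgeR adjusted p = 0.288). That gene had only 11.67 to 18.5 counts in a cKO caudal library.

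**Figure D3:**
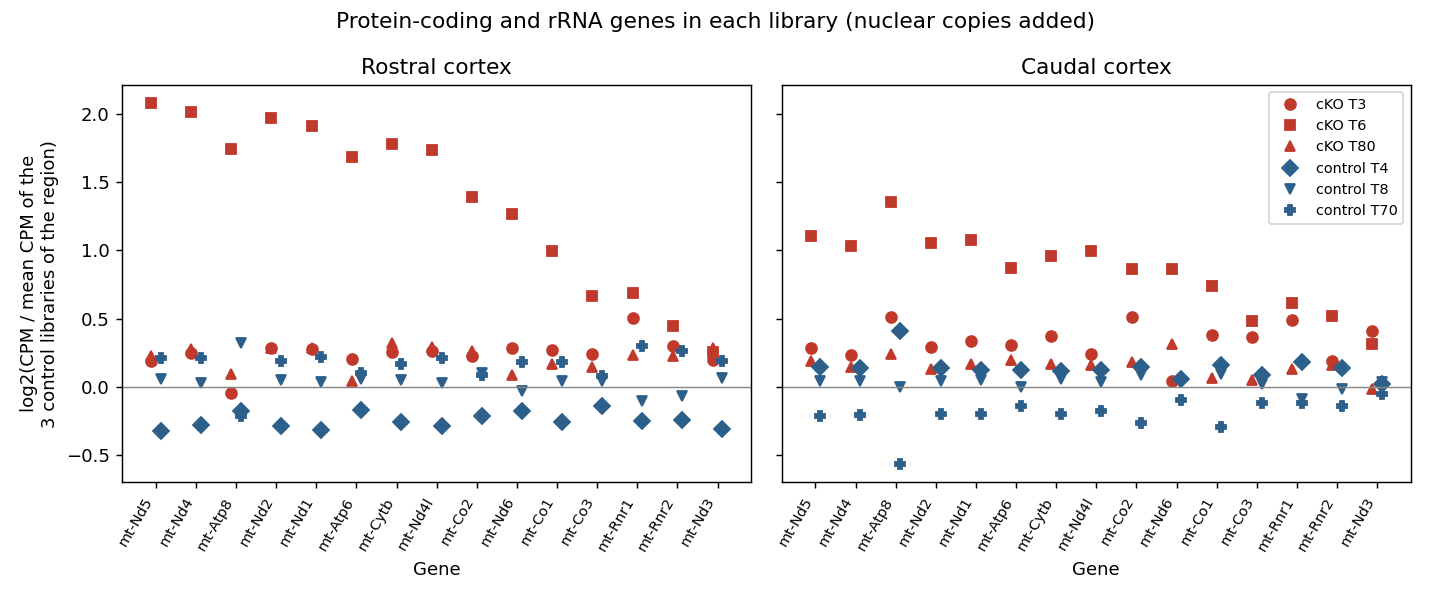
log2 of the level of each protein-coding and rRNA gene (CPM with nuclear copies added) over the mean of the 3 control libraries of the same region, for rostral (left) and caudal (right) cortex; red marks are cKO mice, blue marks are control mice, and each shape is 1 mouse. In rostral cortex T6 lies far above the rest for mt-Nd5 and mt-Nd4 and among the others for mt-Nd3.

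Summing the pieces of each mouse gave the most uniform picture and still no call: 0 of 33 tested genes, against 41 of 22924 genes in all (0.179%). Of the 33, 23 had an unadjusted p under 0.05, against 3528 of all genes tested. The log2 fold changes were above 0 for 30 of 33, with a median of 0.63, against 0.018 over all genes tested. Every cKO mouse lay above every control mouse for 22 of the 33 genes, where 12.5% of all genes tested did so. These included 14 of the 15 protein-coding and rRNA genes (all but mt-Atp8), whose adjusted p ran from 0.195 to 0.322. DESeq2 called 5 (mt-Rnr1, mt-Co2, mt-Tr, mt-Tl2 and mt-Tt) of the 33, and 3.5% of all genes. With no filter on low counts edgeR called 1 (mt-Rnr2) beside 0.754% of all genes, and voom with quality weights called 1 (mt-Tt) beside 2.76%. Without T6 edgeR called 3, namely mt-Co1 (log2 fold change 0.31, SE 0.07, adjusted p = 0.0476), mt-Cytb (0.31, SE 0.06, adjusted p = 0.042) and mt-Tt (1.17, SE 0.20, adjusted p = 0.028), beside 2.92% of all genes. Leaving T6 out thus lowered the size of the differences and also the spread, and the median of the 33 was then 0.274. Of the 33, 19 then had an unadjusted p under 0.05, against 4722 of 23432 genes in all.

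The nuclear genes that make the partner subunits did not share this direction. Of 70 nuclear genes for subunits of complexes I, III and IV and of ATP synthase, 54 had a log2 fold change below 0 in cKO rostral cortex (median -0.10) and 69 in cKO caudal cortex (median -0.20). None passed the edgeR threshold in either piece, where 0% (rostral) and 0.0821% (caudal) of all genes were called. In rostral cortex 5 of the 70 had an unadjusted p under 0.05, against 1955 of 20599 genes in all. In caudal cortex 36 of the 70 did, against 3004 of 20705 genes in all. Over the same fits all 13 mitochondrial protein-coding genes were above 0, with medians of 0.86 in rostral and 0.54 in caudal cortex. The summed level of the 70 was 5511, 5574 and 5806 CPM in cKO rostral and 6489, 6279 and 5889 CPM in control rostral cortex. It was 6049, 5252 and 5667 CPM in cKO caudal and 6326, 6663 and 6639 CPM in control caudal cortex. In both pieces every cKO mouse lay below every control, and T6 was not set apart in rostral cortex. The smallest adjusted p among the 70 in caudal cortex was 0.0999. Without T6 60 of the 70 were below 0 in rostral cortex (median -0.11, none called) and 70 in caudal cortex (median -0.17), where 1, Atp5d, was called, beside 0.768% of all genes. In the summed counts 61 of the 70 were below 0 (median -0.18) and none was called, beside 0.179% of all genes. Without T6 69 were below 0 in the summed counts (median -0.14), and edgeR called 9, beside 2.92% of all genes. The 9 were Atp5e, Cox5a, Uqcrc1, Atp5h, Uqcrfs1, Cyc1, Atp5o, Ndufa11 and Ndufs8.

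No call was made among nuclear genes that act on mitochondrial DNA and RNA. None of 10 genes for mitochondrial transcription (among them the polymerase and its cofactors), 12 for replication and upkeep of the DNA, 21 for RNA cutting, stability and decay, and 10 activators of mitochondrial biogenesis passed the edgeR threshold in any comparison. Of all genes, 0% were called in rostral cortex, between regions in cKO mice and for the interaction of genotype and region. The share called was 0.0821% in caudal cortex, 0.179% in the summed counts and 12.2% between regions in control mice. In rostral cortex the medians of these 4 lists were 0.11, 0.07, 0.02 and 0.04 (log2), and in caudal cortex 0.05, 0.08, 0.01 and 0.11. Rostral T6 had the highest summed level of the 12 libraries in 3 of the lists: 126 CPM for transcription, against 104 to 122 CPM in the other 11 libraries, 610 CPM for RNA cutting, stability and decay, against 526 to 567 CPM, and 366 CPM for the activators, against 269 to 301 CPM. For replication and upkeep it had 187 CPM, within the 183 to 193 CPM of the others. Without T6 the rostral medians were -0.04, 0.03, -0.03 and -0.02.

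The caudal piece had a lower mitochondrial share than the rostral piece in 6 of 6 mice. The difference, caudal minus rostral, was -1.24 points in T3, -4.19 in T6 and -1.48 in T80 among cKO mice, and -0.303 in T4, -0.948 in T8 and -1.78 in T70 among controls. Its mean was -1.66 points (SD 1.34, n = 6 mice), with p = 0.0312 in the exact two-sided permutation test that flips the sign within each mouse, the smallest p that 6 pairs allow. T6 had the largest difference and T4 the smallest. Without T6 the mean was -1.15 points, and 5 pairs cannot give a p below 0.0625. At the level of genes with copies added, 15 of 15 protein-coding and rRNA genes were lower in the caudal piece in each of the 6 mice, in T4 by as little as 0.008 on the log2 scale (mt-Nd6, log2 -0.008). On the mitochondrial rows alone mt-Co2, with few counts, was the 1 exception, in T4 (log2 0.026).

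**Figure D4:**
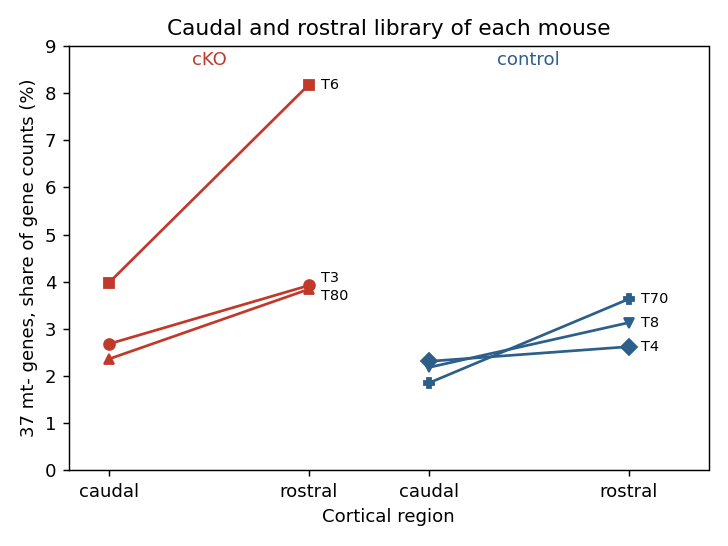
Share of gene counts taken by the 37 mitochondrial genes (y axis, percent) in the caudal and the rostral library of each mouse (x axis), joined by a line; red lines are cKO mice and blue lines are control mice. All 6 lines are lower at the caudal end, by 0.303 (T4) to 4.19 points (T6).

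Among control mice, 15 of 31 tested mitochondrial genes fell in the caudal piece relative to the rostral piece and none rose (edgeR, adjusted p under 0.05), where 12.2% of all genes tested were called and 5.88% were called lower. They were 6 of the 7 complex I genes, mt-Cytb, mt-Co1, mt-Co3, mt-Atp6, mt-Atp8, mt-Rnr2 and the tRNA genes mt-Tf, mt-Tl1 and mt-Tg. The median log2 fold change of the 31 was -0.604, against 0.004 over all genes tested. On its own row mt-Nd3 had 435, 440 and 416 CPM in control caudal T4, T8 and T70 and 570, 743 and 817 CPM in control rostral cortex. The caudal libraries were close together and all below the rostral ones, with a log2 fold change of -0.72 (SE 0.12, edgeR adjusted p = 0.0124). For mt-Cytb they were 3140, 3009 and 2515 CPM in caudal and 3627, 4487 and 4854 CPM in rostral cortex (-0.58, SE 0.12, edgeR adjusted p = 0.0232). For mt-Nd1, which lies next to the quinone site of complex I, they were 2513, 2390 and 2011 CPM in caudal and 3064, 3909 and 4439 CPM in rostral cortex (-0.72, SE 0.15, edgeR adjusted p = 0.0293).

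Of the copies, Gm28438, Gm10925, Gm28437 and Gm28661 were also called lower in control caudal cortex. Their log2 fold changes were -0.71 (SE 0.08, edgeR adjusted p = 0.000269) for Gm28438, -0.57 (SE 0.09, adjusted p = 0.00235) for Gm10925, -0.45 (SE 0.07, adjusted p = 0.00302) for Gm28437 and -0.56 (SE 0.13, adjusted p = 0.031) for Gm28661. So the large counts that stood on chromosome 1 had the same direction as the few on the rows of mt-Co2, mt-Atp6 and mt-Co3. The row of mt-Co2 did not pass (adjusted p = 0.0939), nor did mt-Rnr1 (0.0999) or mt-Nd6 (0.103).

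For 19 of the 31 genes every control caudal library was below every control rostral library, and for 1 (mt-Ta) every one was above, against 15% and 16.4% of all genes tested. These calls rested on few mice. With the mouse as a block 8 were called, all among the 15 (mt-Atp6, mt-Atp8, mt-Co3, mt-Cytb, mt-Nd3, mt-Tf, mt-Tg and mt-Tl1), beside 15.4% of all genes. Without T8 none was called (smallest adjusted p 0.0684, 5.25% of all genes called), and none without T70 (0.0505, 7.19%). Without T4 19 were called, beside 8.21% of all genes, and DESeq2 on all mice called 17, beside 13.8%. The pieces also differed in other tissue: 5 of 8 choroid plexus markers (Kcnj13, Kl, Folr1, Sostdc1 and Otx2) were called higher in control caudal cortex, where their summed level was 71.0 to 287 CPM, against 53.9 to 70.2 CPM in control rostral cortex. Their part in the mitochondrial difference was not tested.

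In cKO mice 0 of 33 tested genes were called between caudal and rostral cortex, as were 0 of 20944 genes in all (0%); 9 of the 33 and 348 of all genes had an unadjusted p under 0.05. DESeq2 called mt-Nd3 alone of the 33 (adjusted p = 0.0424), beside 0.0191% of all genes. The log2 fold changes were below 0 for 29 of 33, with a median of -0.75, against -0.02 over all genes tested, and the median was -0.607 without T6. Every cKO caudal library was below every cKO rostral library for 7 of the 33 and above for 1 (mt-Tc), against 3.11% and 2.65% of all genes tested. The row of mt-Nd3 had 578, 538 and 429 CPM in cKO caudal T3, T6 and T80 and 816, 837 and 865 CPM in cKO rostral cortex, without overlap (log2 fold change -0.71, SE 0.14). In the test of whether the regional difference depended on genotype, 0 of 34 genes were called, as were 0 of 21599 genes in all (0%). None of the 34 and 767 of all genes had an unadjusted p under 0.05, and DESeq2 called none of the 34 and 0.0648% of all genes. The nuclear genes for partner subunits again went the other way in control mice. There 67 of 70 were higher in caudal than in rostral cortex, by a median of 0.09 (log2), and none was called, beside 12.2% of all genes. In cKO mice 28 of the 70 were above 0 and 42 below, with a median of -0.04 and none called. Without T6, 50 were above 0 and 20 below, with a median of 0.03.

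In the make-up of the mitochondrial counts, both pieces of T6 lay outside the range of the other 10 libraries on the measures that follow. Other measures varied among those 10 as well. The ratio of mt-Rnr2 to mt-Rnr1 counts was 1.46 in cKO caudal T3 and up to 1.9 in control rostral T8. The ratio of mt-Nd6 to mt-Nd5, given below, differed by region. The rRNA genes held 5.84% of the counts of the 37 genes in cKO rostral T6 and 9.97% in cKO caudal T6, against 11.6% to 13.7% in the other libraries. Complex I genes held 61.6% and 52.6% in rostral and caudal T6, against 47.2% to 50.6% in the others. The ratio of mt-Nd3 to mt-Nd4, per length, was 0.19 in rostral T6 and 0.367 in caudal T6, against 0.541 to 0.683 in the others. The genes ordered themselves much alike in both pieces of T6. Over the mean of the other cKO rostral libraries, rostral T6 was 3.65-fold higher in mt-Nd5, 3.35-fold in mt-Nd4, 3.21-fold in mt-Nd2 and 3.1-fold in mt-Nd1, but 1.71-fold in mt-Co1, 1.39-fold in mt-Co3, 1.24-fold in mt-Rnr1, 1.13-fold in mt-Rnr2 and 1.01-fold in mt-Nd3. Over the other cKO caudal libraries, caudal T6 was 1.82-fold higher in mt-Nd5, 1.79-fold in mt-Nd4, 1.42-fold in mt-Co1, 1.2-fold in mt-Co3 and 1.07-fold in mt-Nd3. The rRNA genes mt-Rnr1 (1.23-fold) and mt-Rnr2 (1.26-fold) lay above mt-Co3 in caudal T6, but below it in rostral T6. Neighbours on the genome could lie far apart in this order: mt-Nd3 is followed on the same strand by mt-Nd4l and mt-Nd4.

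Because of T6 the composition of the cKO and control rostral groups could not be compared beyond that mouse. The rRNA share was 10.4% ± 4.03 in cKO rostral and 12.4% ± 0.772 in control rostral cortex (SD, n = 3 each). Without T6 the difference turned to 0.31 points, higher in cKO. The complex I share was 53.6% ± 6.91 in cKO rostral and 49.9% ± 0.745 in control rostral cortex, and without T6 the difference was -0.288 points.

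The minus-strand gene mt-Nd6 varied less with region than its plus-strand neighbour mt-Nd5. The ratio of mt-Nd6 to mt-Nd5, per length, was 0.181 (T3), 0.181 (T6) and 0.233 (T80) in cKO caudal cortex and 0.166, 0.0888 and 0.141 in cKO rostral cortex. It was 0.201 (T4), 0.211 (T8) and 0.233 (T70) in control caudal cortex and 0.172, 0.147 and 0.152 in control rostral cortex. The caudal value was thus higher in 6 of 6 mice, and no caudal library overlapped with a rostral one. This ratio was chosen after its values were seen and was not tested. If strand was not used in counting, the ratio would include plus-strand reads on both genes.

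**Figure D5:**
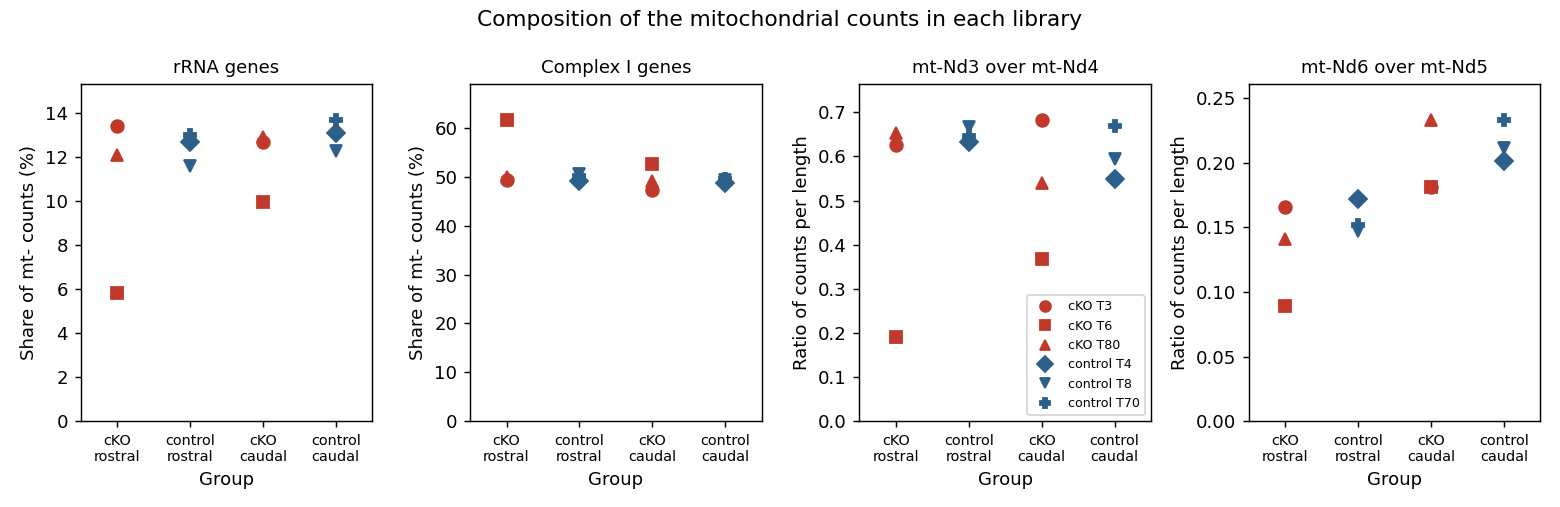
Composition of the mitochondrial counts in each library: share of the 37 genes' counts held by the rRNA genes and by complex I genes (percent), and the ratios of mt-Nd3 to mt-Nd4 and of mt-Nd6 to mt-Nd5 in counts per length, by group (x axis); red marks are cKO, blue marks are control, and each shape is 1 mouse. The rostral piece of T6 is the lowest of the 12 libraries in rRNA share (5.84%) and in both ratios (0.19 and 0.0888).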

How the data were processed

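The deposited values are expected counts per gene, one table per library; per the submitters' processing notes the authors used STAR 2.7.8a and featureCounts 2.0.3 with genome build GRCm39. Per the labels' protocols, mRNA was captured from total RNA before library construction and read as paired ends of 50 bases. Which annotation release was used, whether strand was counted and how multi-mapped reads were treated is not given in the sources used. Of the values above 0, 18.5% to 25.2% per library were fractional, and 87.1% of those ended in 0.5, so some reads were possibly shared out among genes. Rounding to whole numbers preceded every test; whole counts had been assumed in the plan, and the planned tests were kept.

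Each comparison was fitted with edgeR 4.0.16 (R 4.3.3) on its own libraries: filterByExpr, TMM scaling, robust quasi-likelihood F test, Benjamini-Hochberg adjustment over all genes tested, threshold 0.05. The standard error was the log2 fold change divided by the square root of F. Printed CPM use TMM factors over the 12 libraries. Shares of counts were compared by exact permutation tests over mice. Alternatives were DESeq2 1.42.0, limma 3.58.1 voom with quality weights, RLE scaling, scaling without the mitochondrial rows and copies, no filter, a filter of 1 CPM in 3 libraries, copies added, each mouse left out, 1 fit over 12 libraries, and the mouse as a block for region. Adding all nuclear rows with shared words of 50 bases was chosen after the data were seen. The fits were tested on simulated data. Libraries with the same T number in the labels come from the same mouse; the deviations of its libraries from their group means correlated across 21599 genes at 0.269, 0.247 and 0.333 in T4, T8 and T70 and at 0.0307, -0.00278 and 0.461 in T3, T6 and T80.

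The text names all protein-coding and rRNA genes, and tRNA genes by a mean of 1 CPM or more; mt-Ta, mt-Tc, mt-Tl2 and mt-Tn were named after their values were seen. Of 17 listed nuclear ATP synthase genes 15 matched the files, 14 of them by a synonym. Members, lists and tests were chosen with earlier results of these data known. For genotype within a piece or in the summed counts, the p-values measure the spread between these mice, 3 per genotype. The fits of region, of the interaction and over all 12 libraries had no mouse term, except where the mouse was a block. They took the 2 pieces of a mouse as separate libraries, so their p-values measure the spread between libraries. The sign-flip test measures the spread of the differences within the 6 mice.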

Additional observations from a re-analysis of the deposited data

How the results depend on the processing

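Leaving out T6 lowered every genotype difference in share, and the ranges over single mice left out were 0.754 to 2.92 points (rostral), 0.405 to 1.22 (caudal) and 0.642 to 2.28 (summed). For caudal minus rostral the range was -1.93 to -1.15 points, with an exact permutation p of 0.0625 each time. The difference in composition between cKO and control rostral cortex ran from -0.288 to 5.82 points for complex I genes and from -3.47 to 0.31 points for rRNA genes, changing sign without T6.

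The number of mitochondrial genes called in caudal cortex was 1 with DESeq2, 1 with no filter and 1 with voom quality weights, and 0 to 1 over single mice left out. In the summed counts it was 5, 1 and 1 with these settings, beside 3.5%, 0.754% and 2.76% of all genes, and 0 to 3 over mice left out. In cKO mice between regions it was 1 with DESeq2. In control mice between regions it was 8 with the replicate block and 0 to 19 over mice left out; the other alternatives stayed within 1.5 times of the count reported. The block changed no other count. No mitochondrial gene was called in rostral cortex or for the interaction under any alternative run.

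Log2 fold changes of the 26 named genes kept their direction between genotypes except mt-Tp and mt-Tw with 1 mouse left out. Over single mice left out, mt-Tp ran from -0.14 to 0.26 in rostral and from -0.38 to 0.07 in caudal cortex, and mt-Tw from -0.09 to 0.19 in caudal cortex. Depth limits the tRNA genes and the rows of mt-Co2, mt-Atp6, mt-Atp8 and mt-Co3, which hold few counts.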
